A study of Mus musculus with 6 samples.

Results

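The genes described here are 10 that govern the G1 phase of the cell cycle in the mouse: the cyclins Ccnd1, Ccnd2, Ccnd3 and Ccne1, the kinases Cdk4 and Cdk6, the inhibitors Cdkn1b and Cdkn2c, the retinoblastoma gene Rb1 and the transcription factor Myc. They were taken by symbol from a table of 55487 genes, and all 10 were found in it. The table holds the read counts of 6 libraries from RAW264.7, an established macrophage line from a mouse tumour induced by Abelson leukaemia virus. Per the labels, all 6 had received RANKL and M-CSF, cytokines that drive macrophages toward bone-resorbing osteoclasts. In 3 libraries the labelled genotype was wild type, and the study's design text calls this control line untreated. Whether untreated means without the cytokines could not be settled here. If it does, treatment and genotype cannot be told apart in any comparison below. In the other 3 the labelled genotype was RhoA knockout, made with a Cas9 system named SMART-Cas9, and the study asked what loss of this small GTPase does in macrophages. No group received Cas9 without the targeting of Rhoa, the labels do not say whether the edited cells were 1 clone or a pool, and they name no separate cultures for the 3 replicates of either group. The p-values below therefore speak only to variation among these 6 samples, part or all of which may be technical.

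In G1 a cell decides whether to copy its DNA. Mitogens raise the D cyclins, which bind the kinases CDK4 and CDK6, and these add phosphate to the retinoblastoma protein so that it lets go of E2F transcription factors. Free E2F raises cyclin E and the genes of DNA replication, and cyclin E with CDK2 completes the phosphorylation. The INK4 inhibitors, Cdkn2c among them, block CDK4 and CDK6, whereas the CIP/KIP inhibitors such as Cdkn1b act mainly on CDK2 complexes. MYC binds DNA as a partner of MAX at the E-box, a short palindromic motif, and Cdk4 and Ccnd2 are among its classical targets. In monocytes and macrophages, M-CSF acts on its receptor Csf1r to raise Ccnd1 and Myc, and differentiation into osteoclasts is accompanied by exit from the cell cycle.

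Library totals ran from 60198645 to 81830819 counts. Rhoa itself (ENSMUSG00000007815.13, chr9:108306129-108337934, plus strand) was at 21.45, 25.8 and 24.43 CPM (counts per library size, scaled by the TMM method) in the controls and at 34.18, 29.87 and 31.49 CPM in the other libraries. It was thus not lower where the label reads knockout: its log2 fold change was 0.41 ± 0.12 (SE, n = 3 per group), with an adjusted p of 0.0136 that rose to 0.0645 without control replicate 1 and 0.0741 without knockout replicate 1. With the length trend removed the value was 0.75 (adjusted p = 0.000331). Counts per gene do not show whether the coding sequence was disrupted, and the libraries are called knockout-labelled throughout. The 10 most abundant genes held 59.5 to 61% of the control counts and 43.1 to 46.8% of the knockout-labelled counts, and mitochondrial genes held 7.01 to 8.69% and 9.95 to 12.26%. The macrophage markers Csf1r and Cd68 rose from 257.0 to 577.2 and from 1366 to 3369 CPM, Itgam fell from 28.29 to 7.011 CPM and Mertk was at or near 0. Of the 8 macrophage markers tested 3 were called higher and 4 lower, and the list summed to 18200 to 20000 CPM in the controls and to 81100 to 114000 CPM in the knockout-labelled libraries, mostly Lyz2. Osteoclast markers summed to only 24.3 to 27.7 and 27.3 to 27.5 CPM, with 2 higher and 3 lower of 7 tested, and Calcr, the calcitonin receptor of mature osteoclasts, had no count in any library. Long genes were lower as a class: the median log2 fold change was 0.32 among genes with up to 1751 bp of exon and -0.47 among those of 6973 bp or more. The part of these shifts in the changes below was not tested beyond the length-corrected values given. A change in the share of cells in cycle and a change in RNA per cell cannot be told apart in such bulk samples.

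Of the 10 genes, 1 rose and 4 fell at an adjusted p under 0.05. Cdk4 rose, Ccnd1, Ccnd2, Cdk6 and Myc fell, and Ccnd3, Ccne1, Cdkn1b, Cdkn2c and Rb1 did not pass. Among all 12930 genes tested, 43.2% were called, 21.0% higher and 22.3% lower, so the members' count of 5 of 10 is close to that background and is read gene by gene. TMM scaling put 48.5% of the calls on the higher side, whereas library totals alone put 59.8% there and shifted the median gene from -0.03 to 0.15 on the log2 scale. The groups did not overlap in 6 of the 10 genes, the 5 called and Rb1, against 55.8% of all genes tested. The median log2 fold change of the 10 was -0.48. All 10 passed the filter on low counts, but Myc passed it only through the control group, where it is high. Its call therefore does not stand apart from that filter.

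**Figure D1:**
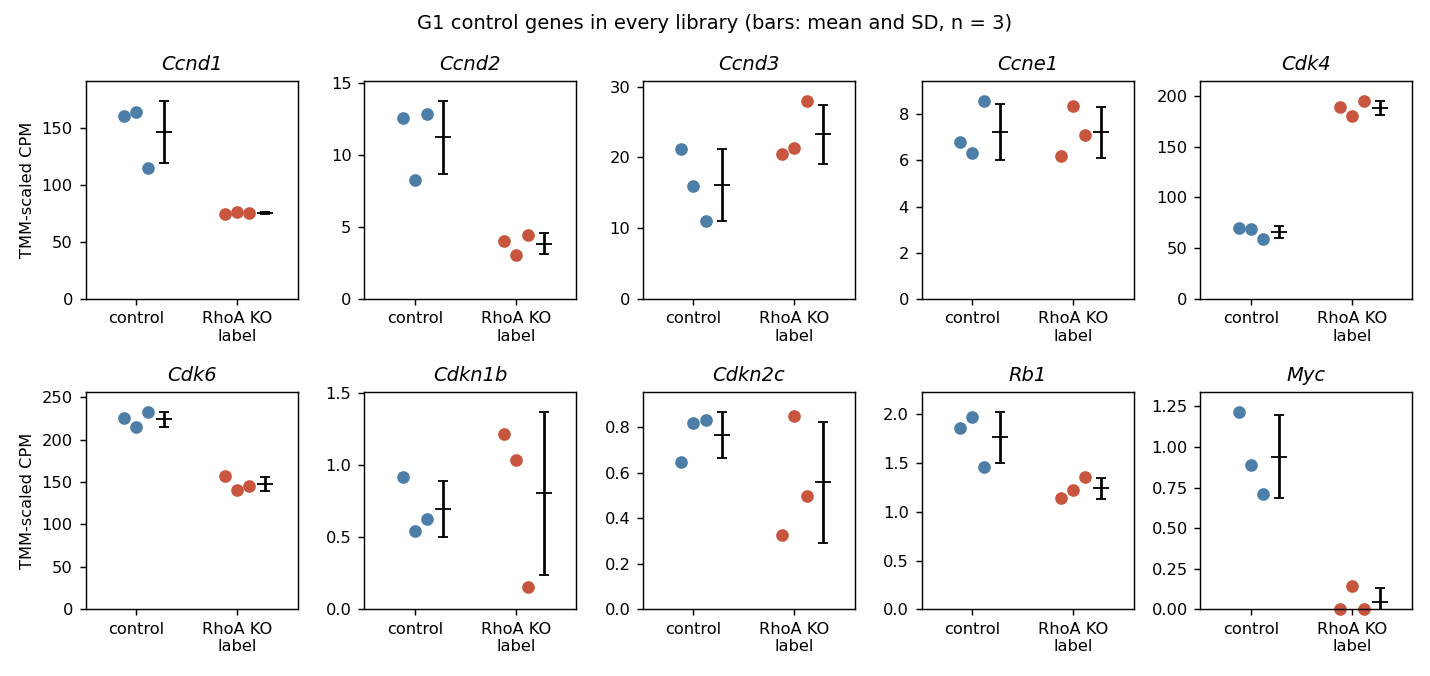
TMM-scaled CPM of each of the 10 genes in the 3 control (blue) and 3 knockout-labelled (red) libraries, each panel on its own linear axis from 0, with mean and SD beside the points. Cdk4 sits at 180.3 to 194.6 CPM in the knockout-labelled libraries against 59.27 to 70.14 in the controls, while Ccnd1, Ccnd2, Cdk6 and Myc are lower without overlap.

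The 2 kinases moved in opposite directions. Cdk4 (ENSMUSG00000006728.12, chr10:127063534-127067920, plus strand) stood at 70.14, 68.35 and 59.27 CPM in the controls and at 188.9, 180.3 and 194.6 CPM in the knockout-labelled libraries. Every knockout-labelled library was thus far above every control, and the 3 of each group lay close together. The rise was 2.85-fold, a log2 fold change of 1.51 ± 0.11 (SE, n = 3 per group, adjusted p = 5.46e-07). Tspan31, which overlaps Cdk4 by 641 bp of exon on the other strand, held 13.7 to 49.6% of the Cdk4 count and was itself not called (log2 fold change 0.22, adjusted p = 0.296). Whether the counting used strand is not given in the sources used here, so reads in that overlap cannot be assigned.

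Cdk6 (ENSMUSG00000040274.11, chr5:3341485-3531008, plus strand) stood at 225.8, 214.4 and 232.0 CPM in the controls and at 156.7, 140.5 and 145.4 CPM in the knockout-labelled libraries. All 3 were lower than any control, by 1.52-fold (log2 fold change -0.60 ± 0.10, adjusted p = 0.00042). Cdk6 has 13989 bp of annotated exon, which puts it in the longest class of genes, where the median gene fell by 0.47 on the log2 scale. After the trend of fold change with exon length was taken out, its log2 fold change was 0.00 (adjusted p = 1), and that of Cdk4 was 1.41. The fall of Cdk6 was therefore the size of that of genes of its length, whereas the rise of Cdk4 kept most of its size.

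Per kilobase of exon, Cdk4 was at 20.3 ± 1.79 CPM (SD) in the controls and 57.8 ± 2.21 in the knockout-labelled libraries, and Cdk6 at 16.0 ± 0.635 and 10.5 ± 0.593. The ratio of Cdk4 to Cdk6 on this per-length scale was 1.34, 1.37 and 1.1 in the controls and 5.19, 5.53 and 5.76 in the knockout-labelled libraries. Cdk4 was thus above Cdk6 in every library, by less in the controls than in the knockout-labelled libraries. The level of the ratio depends on the exon lengths used, and its fold change does not. The ratio was not corrected for the trend of fold change with exon length. With that trend removed the log2 fold changes were 1.41 for Cdk4 and 0.00 for Cdk6, so the change of the ratio is then smaller.

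The RefSeq promoters of the 2 kinases (GRCm38.p6, 250 bases before to 50 after the start, plus strand in both) are shown for the E-box named above. Capitals mark the E-box CACGTG, which reads the same on both strands. The Cdk4 window is chr10:127063285-127063584 and the Cdk6 window is chr5:3343643-3343942.
Cdk4: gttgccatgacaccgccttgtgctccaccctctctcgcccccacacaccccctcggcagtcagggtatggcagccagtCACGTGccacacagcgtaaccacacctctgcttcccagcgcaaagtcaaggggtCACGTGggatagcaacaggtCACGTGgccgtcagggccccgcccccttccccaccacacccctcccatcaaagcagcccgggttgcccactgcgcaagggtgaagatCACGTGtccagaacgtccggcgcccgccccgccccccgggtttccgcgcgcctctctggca
Cdk6: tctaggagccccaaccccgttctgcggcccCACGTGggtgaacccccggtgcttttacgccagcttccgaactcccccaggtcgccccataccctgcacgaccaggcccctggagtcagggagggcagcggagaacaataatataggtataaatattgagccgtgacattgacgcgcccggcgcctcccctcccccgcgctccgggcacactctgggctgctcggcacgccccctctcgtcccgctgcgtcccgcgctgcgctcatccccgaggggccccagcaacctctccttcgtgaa
The Cdk4 window held 4 E-boxes, at -172, -118, -98 and -11 from the start, and the Cdk6 window held 1, at -220. Over 32851 promoters of this length 7.15% held at least 1 E-box, and 8 promoters, or 0.0244%, held 4 or more. The cut of 4 is the count of the Cdk4 window itself. Promoters were matched for 6 of the 10 genes, Ccnd3, Ccne1, Cdk4, Cdk6, Cdkn1b and Cdkn2c, and not for Ccnd1, Ccnd2, Rb1 or Myc. Both Ccnd3 starts, Ccne1 and Cdkn1b held no E-box in this window, and Cdkn2c held 1 at +35 of its second start. None of the 8 windows held the E2F motifs TTTGGCGC, TTTCGCGC or TTTCCCGC on either strand, which stood in 1.84% of all promoters. These are matches of letters and do not show binding, and a link between them and the changes of these genes was not tested.

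Among the D cyclins, Ccnd1 and Ccnd2 fell and Ccnd3 did not. Ccnd1 (ENSMUSG00000070348.5, chr7:144929931-144939925, minus strand), the D cyclin that responds most to growth factors, stood at 160.5, 164.1 and 115.2 CPM in the controls and at 74.14, 75.75 and 74.96 CPM in the knockout-labelled libraries. The knockout-labelled values were nearly identical and all below the lowest control. Ccnd1 was 1.96-fold lower (log2 fold change -0.97 ± 0.13, adjusted p = 0.000104).

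Ccnd2 (ENSMUSG00000000184.12, chr6:127125162-127152193, minus strand) stood at 12.53, 8.285 and 12.83 CPM against 4.046, 3.031 and 4.431 CPM. It was 2.93-fold lower (log2 fold change -1.55 ± 0.22, adjusted p = 0.000132), again without overlap. With the length trend taken out, the log2 fold changes were -0.88 for Ccnd1 and -1.11 for Ccnd2, so both fell by more than other genes of their exon length.

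Ccnd3 (ENSMUSG00000034165.16, chr17:47505051-47599691, plus strand) stood at 21.15, 15.96 and 11.05 CPM in the controls and at 20.46, 21.25 and 27.98 CPM in the knockout-labelled libraries, so that control replicate 1 lay within the other group's range. Its log2 fold change of 0.53 ± 0.21 did not pass (adjusted p = 0.0614). The value passed without control replicate 1 (0.78, adjusted p = 0.0128) and with the length trend removed (0.96, adjusted p = 0.00488). It shrank to 0.32 (adjusted p = 0.171) without control replicate 3 and to 0.38 (adjusted p = 0.225) without knockout replicate 3. Bysl, which overlaps it by 361 bp of exon on the other strand, held 81.6 to 199% of the Ccnd3 count and was itself not called (log2 fold change -0.03, adjusted p = 0.854).

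Weighed per length, Ccnd1 supplied most D cyclin message in every library. Its share of the summed level was 90.11, 92.81 and 90.32% in the controls and 85.08, 85.43 and 81.31% in the knockout-labelled libraries, a difference of -7.14 percentage points. The Ccnd3 share was 6.37, 4.84 and 4.65% in the controls and 12.6, 12.86 and 16.29% in the others, a difference of 8.63 points. Ccnd2 made up 3.52, 2.34 and 5.03% and 2.32, 1.71 and 2.41%, so its share overlapped between groups. The Ccnd1 and Ccnd3 shares did not overlap, and 2-sided exact permutation tests gave p = 0.1 for each, the smallest that 3 against 3 allows, and p = 0.2 for Ccnd2 (adjusted over the 3 shares, 0.15, 0.15 and 0.2). With the length of the longest transcript in place of all exons, the Ccnd3 difference was 13.4 points and the Ccnd1 difference -11.6 points, since Ccnd3 has a longest transcript of 3858 bp in 8775 bp of exon.

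**Figure D2:**
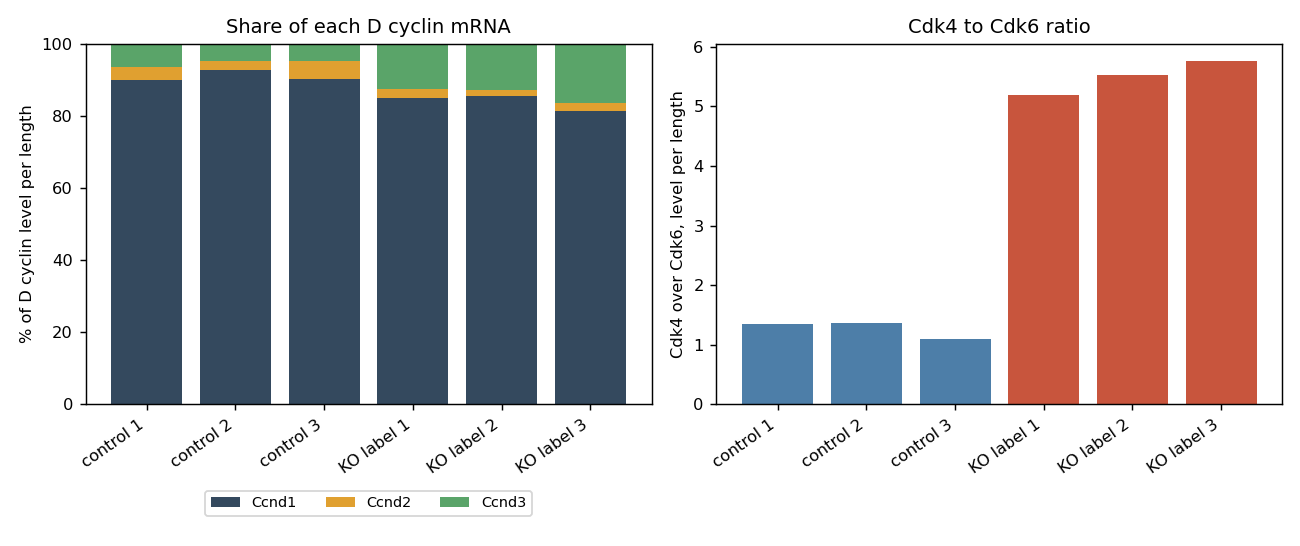
Left, the share in percent of each D cyclin in the summed CPM per kb of Ccnd1, Ccnd2 and Ccnd3 in each library. Right, the ratio of Cdk4 to Cdk6 in CPM per kb in each library, between 1.1 and 1.37 in the controls (blue) and between 5.19 and 5.76 in the knockout-labelled libraries (red). The ratio is not corrected for the trend of fold change with exon length.

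Ccne1 (ENSMUSG00000002068.16, chr7:38097984-38107534, minus strand), which activates CDK2 late in G1, stood at 6.778, 6.304 and 8.586 CPM in the controls and at 6.178, 8.367 and 7.113 CPM in the knockout-labelled libraries. The groups overlapped throughout. Its log2 fold change was 0.00 ± 0.19, with a 95% interval from -0.42 to 0.42 (adjusted p = 1).

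The second cyclin E gene, Ccne2, was named after its values were seen. It had 5, 15 and 24 counts in the controls and 267, 199 and 246 in the knockout-labelled libraries. Ccne2 was thus at 0.0648, 0.2563 and 0.4072 CPM in the controls and at 3.254, 2.226 and 3.234 CPM in the others (log2 fold change 3.60 ± 0.54, adjusted p = 0.000196). The controls alone would not have passed the filter on low counts, so Ccne2, like Myc, was tested only through the group where it is high. Its call therefore does not stand apart from that filter. Ints8 overlaps Ccne2 by 609 bp on the other strand and held 3.75 to 2300% of its count, with a log2 fold change of -2.65, so reads of the 2 genes cannot be told apart there.

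Ccna2 and Cdk2, the cyclin A gene and the kinase of the next step, were also named after their values were seen. Ccna2 rose from 10.06, 7.124 and 5.888 CPM to 20.05, 29.16 and 35.43 CPM (log2 fold change 1.87 ± 0.23, adjusted p = 6.6e-05). Cdk2 was at 5.534, 6.048 and 3.971 CPM and at 9.651, 7.539 and 7.928 CPM (log2 fold change 0.69 ± 0.20, adjusted p = 0.0159), and without knockout replicate 1 it did not pass (0.56, adjusted p = 0.0876). Both were higher in all 3 knockout-labelled libraries than in any control. Exosc9 overlaps Ccna2 by 510 bp on the other strand, held 76.6 to 213% of its count and rose by 0.78 on the log2 scale (adjusted p = 0.0169).

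The inhibitors among the 10 genes were sparse. Cdkn1b (ENSMUSG00000003031.14, chr6:134920401-134925513, plus strand), which encodes p27 of the CIP/KIP family, had 71, 32 and 37 counts in the controls and 100, 93 and 12 in the knockout-labelled libraries. Knockout replicate 3 stood far below the other 2 of its group, so the spread within the group covers all controls. The log2 fold change of 0.20 ± 0.66 has a 95% interval from -1.25 to 1.66 (adjusted p = 0.832), and it was -0.24 without knockout replicate 1.

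Cdkn2c (ENSMUSG00000028551.14, chr4:109660876-109667189, minus strand), which encodes the INK4 inhibitor p18, had 50, 48 and 49 counts in the controls and 27, 76 and 38 in the knockout-labelled libraries. The groups overlapped, and the log2 fold change was -0.45 ± 0.55 (95% interval -1.65 to 0.75, adjusted p = 0.548). The interval of Cdkn1b thus includes a doubling and a halving, and that of Cdkn2c includes a halving. With the counts divided by 4 the SEs were 0.59 for Cdkn1b and 0.53 for Cdkn2c, no larger than at full depth. That fit estimated the spread anew, so it does not show whether depth limits these 2 genes.

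The inhibitor messages in these cells came from other members of the 2 families, which were named after their values were seen. Cdkn1a, which encodes p21 of the CIP/KIP family, was at 340.4, 263.7 and 380.2 CPM in the controls and fell to 100.3, 110.4 and 138.8 CPM (log2 fold change -1.49 ± 0.16, adjusted p = 1.23e-05). Per kilobase it was at 92.3 CPM in the controls and 32.8 in the knockout-labelled libraries, against 0.153 and 0.177 for Cdkn1b. Cdkn2d, which encodes the INK4 inhibitor p19, was at 37.7, 44.11 and 40.38 CPM and at 40.41, 38.32 and 39.67 CPM.

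The Cdkn2d values overlapped, and its log2 fold change was -0.05 ± 0.11 (95% interval -0.28 to 0.19, adjusted p = 0.764). With the length trend removed it passed, at -0.41 (adjusted p = 0.0107). Per kilobase Cdkn2d stood at 25.9 and 25.1 CPM, against 0.285 and 0.208 for Cdkn2c. Cdkn2a, Cdkn2b and Cdkn1c had no count in any of the 6 libraries, where 3 counts would be 0.034 to 0.051 CPM.

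Rb1 (ENSMUSG00000022105.6, chr14:73183673-73325822, minus strand), which encodes the pocket protein that holds E2F in check, was also sparse. It had 143, 115 and 86 counts in the controls and 94, 109 and 103 in the knockout-labelled libraries, or 1.853, 1.965 and 1.459 CPM and 1.145, 1.219 and 1.354 CPM. The knockout-labelled values lay below all controls on the CPM scale. The log2 fold change of -0.50 ± 0.33 did not pass, with a 95% interval from -1.22 to 0.21 (adjusted p = 0.241).

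Rcbtb2 and Lpar6 overlap Rb1 on the other strand and held 12.2 to 466% and 50.3 to 297% of its count, with log2 fold changes of 2.43 and 1.29 (adjusted p = 0.00197 and 0.0101). Reads in those overlaps cannot be assigned. The related pocket protein genes, named after their values were seen, were at similar levels per length. Rbl1 was at 0.31 and 0.361 CPM per kb (log2 fold change 0.22 ± 0.31, adjusted p = 0.607) and Rbl2 at 0.151 and 0.194 (0.36 ± 0.37, adjusted p = 0.471), and neither was called. Aktip, on the other strand, held 457 to 840% of the Rbl2 count.

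Myc (ENSMUSG00000022346.16, chr15:61985391-61990374, plus strand) was low in the controls and nearly without reads in the other libraries. It had 94, 52 and 42 counts in the controls, or 1.218, 0.8883 and 0.7127 CPM, and 0, 13 and 0 counts in the knockout-labelled libraries. All 13 counts of that group came from knockout replicate 2, and all 3 controls were higher. The fitted log2 fold change was -4.19 ± 1.17 (adjusted p = 0.0123), a value that depends on how libraries at 0 are treated.

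By summed counts the controls were 18.4 times the knockout-labelled libraries, with a 95% counting interval from 10.5 to 35.2 that leaves out the spread between samples. Against only the 2 libraries at 0, set to 3 counts over both, the controls were at least 50.9-fold higher. Those 2 were picked because they hold no Myc count, which leaves out knockout replicate 2. The value is therefore no bound for the group. The call was lost without control replicate 1 (adjusted p = 0.0602), and the fitted value went to -9.06 without knockout replicate 2.

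Mycn, the MYC family gene best known from embryonic and neural cells, was the more abundant of the pair in every library. It had 33.32, 38.56 and 31.65 CPM in the controls and 104.8, 186.4 and 253.3 CPM in the knockout-labelled libraries. The controls lay close together and the knockout-labelled libraries were spread over more than a doubling, all above the controls. Mycn rose by 2.40 ± 0.31 on the log2 scale (adjusted p = 0.000605). Per kilobase it stood at 10.5 CPM in the controls and 55.1 ± 22.6 (SD) in the knockout-labelled libraries, where Myc was at 0.346 and 0.0178, and Mycl had no count in any library.

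**Figure D3:**
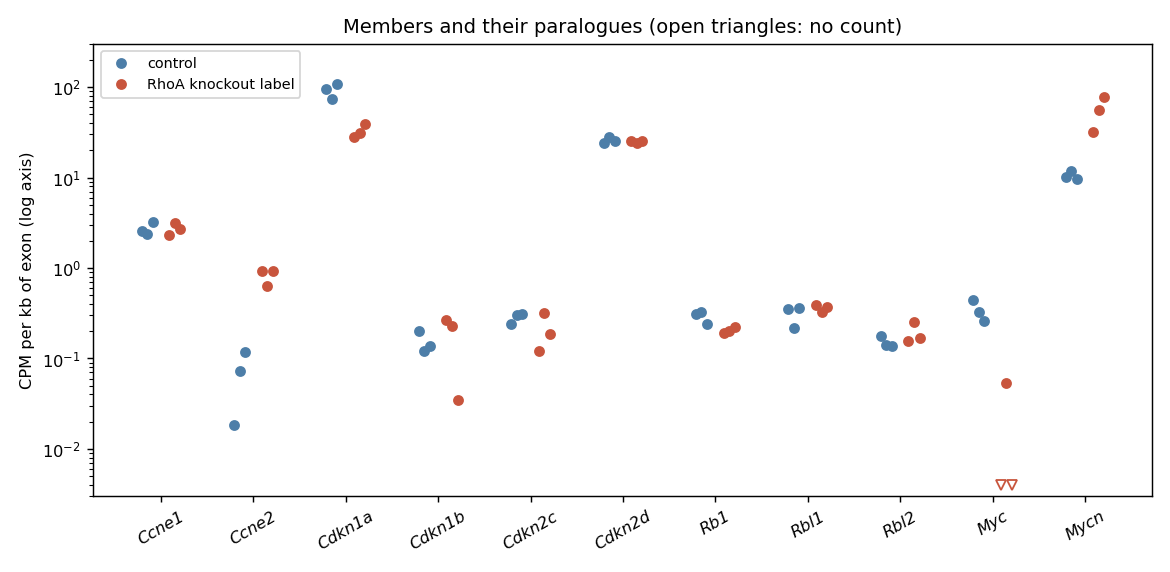
CPM per kb of exon on a log axis for the members Ccne1, Cdkn1b, Cdkn2c, Rb1 and Myc beside their paralogues, 1 point per library (blue, control, and red, knockout-labelled; open triangles mark libraries with no count). Cdkn1a and Cdkn2d lie far above Cdkn1b and Cdkn2c, Ccne2 is higher in the knockout-labelled libraries while the Ccne1 groups overlap, and Mycn is higher where Myc is nearly without counts.

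The plot of changes sets the 10 values on 1 scale. The called genes run from the fall of Myc to the rise of Cdk4, and the widest intervals belong to the genes with the fewest counts.

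**Figure D4:**
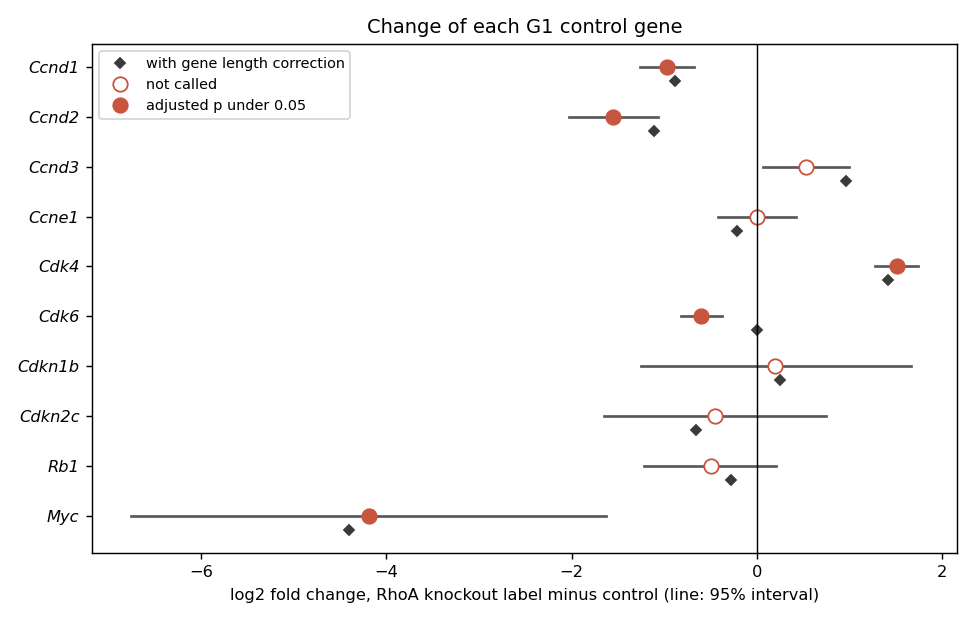
Log2 fold change of each gene, knockout-labelled minus control, as circles with 95% intervals (filled where the adjusted p is under 0.05), and the value after removal of the trend with gene length as diamonds. Ccnd1, Ccnd2 and Cdk4 keep their direction and size class under the length correction, Cdk6 moves to 0.00 and Ccnd3 moves to 0.96.

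The other genes of the pathway were read from 4 lists. Of 47 partners and regulators of the G1 to S transition 44 were tested, of which 11 rose, 13 fell and 20 did not pass, with a median log2 fold change of 0.05. Over all genes tested 21.0% rose and 22.3% fell, so the list's shares are not far from that background. Tfdp2, among the 11 that rose and named after its value was seen, was at 0.1685, 0.06833 and 0.3394 CPM in the controls. Like Ccne2, it would not have passed the filter on low counts through the controls alone. Both were tested only through the group where they are high. Cks1b, a small subunit bound to cyclin-dependent kinases, rose from 37.63 ± 7.09 to 153.8 ± 11.06 CPM (SD), a log2 fold change of 2.03 ± 0.14 (SE, adjusted p = 5.34e-07). Rbx1, the RING subunit of cullin ubiquitin ligases, rose by 1.30 ± 0.11, and Fbxo5, an inhibitor of the anaphase-promoting complex, by 2.33 ± 0.22 (adjusted p = 1.65e-06 and 5.05e-06). Btg1, an antiproliferative gene, fell by 1.62 ± 0.16, from 39.74 to 12.96 CPM (adjusted p = 6.65e-06). The count of lower genes in this list was 4 with scaling by library totals, and 8 with the length trend removed.

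Of the 8 E2F genes themselves, E2f4 and E2f5 fell and the other 6 did not pass. E2f1, a target as well as a member of the family, was at 7.2 and 7.378 CPM (log2 fold change 0.04 ± 0.17, adjusted p = 0.888). E2f5 fell by 2.78 ± 0.49 (adjusted p = 0.000673) and E2f4 by 0.46 ± 0.16 (adjusted p = 0.0384), 2 family members better known as repressors with the pocket proteins. These 3 were named after their values were seen. E2f5 was at a mean of 1.63 CPM in the controls and 0.2363 CPM in the knockout-labelled libraries. The gene 1810022K09Rik overlaps E2f5 by 26 bp of exon on the other strand and held 1090 to 21600% of its count. It rose by 0.68 on the log2 scale (adjusted p = 0.00171).

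The list of E2F targets of G1 to S entry moved mostly one way. All 30 were tested, and 21 rose, 0 fell and 9 did not pass, with a median log2 fold change of 1.07 against -0.03 over all genes, of which 21.0% rose. At an unadjusted p under 0.05 the edgeR counts were 23 higher and 0 lower, and DESeq2 with adjustment also called 23 higher and 0 lower. Ccne2, E2f1 and Rbl1 of this list are also in the first. Ccne2, counted among the genes that rose in both lists, was tested only through the group where it is high. Earlier results of these data were known when it was drawn up, so its direction is not independent evidence.

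The members of this list with the smallest p were replication genes. Mcm7, a subunit of the replicative helicase, rose from 11.76 ± 1.17 to 52.74 ± 1.33 CPM (SD), a log2 fold change of 2.16 ± 0.12 (adjusted p = 7.36e-08). The overlapping Cops6, at 179 to 554% of the Mcm7 count, rose by 0.95 on the log2 scale (adjusted p = 1.98e-05). Mcm5, of the same helicase, rose by 1.40 ± 0.11, and Pcna, the sliding clamp, by 1.39 ± 0.10, from 67.56 to 176.8 CPM (adjusted p = 9.53e-07 and 8.84e-07). Fen1, the flap endonuclease, rose by 2.49 ± 0.16 (adjusted p = 2.19e-07). Tmem258 overlaps Fen1 by 130 bp, held 210 to 927% of its count and rose by 0.72 on the log2 scale (adjusted p = 0.00021). The E2F motifs named above stood in 13 of 31 promoters of these targets, or 41.9%, against 1.84% of all promoters. The list was made of known E2F targets, so that share follows from the choice of genes and not from these samples. A link between the motifs and the rises was not tested.

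Of the 14 tested genes of the MYC network, the partners and antagonists of MYC, 2 rose, 5 fell and 7 did not pass, with a median log2 fold change of -0.25. The 7 of 14 called stand near the 43.2% called over all genes. Besides Mycn, Mxd3 rose by 1.6 ± 0.58 (adjusted p = 0.0418), a gene at 0.6735 and 2.035 CPM that was named after its value was seen. Its call was lost under either length correction and without any 1 library other than control replicate 2. Prelid1, which overlaps Mxd3 by 105 bp on the other strand, held 8820 to 93600% of its count and rose by 0.51 on the log2 scale (adjusted p = 0.00191). Mxd1, which competes with MYC for MAX and is known from differentiated cells, fell from 6.895, 8.012 and 8.382 CPM to 0.5727, 0.179 and 0.3944 CPM (log2 fold change -4.35 ± 0.37, adjusted p = 2.07e-06). Every knockout-labelled library was below every control by a wide margin. Mycbp2 fell by 1.18 ± 0.18 and Mlx by 0.92 ± 0.23 (adjusted p = 0.000204 and 0.00643), and Max, the shared partner named after its value was seen, was not called (-0.12 ± 0.45, adjusted p = 0.848). Psmc3ip overlaps Mlx and held 31.4 to 321% of its count, and with the length trend on the longest transcript removed Mycbp2 did not pass (-0.42, adjusted p = 0.0515).

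MYC target genes went both ways. Of 28 tested 15 rose, 5 fell and 8 did not pass, with a median log2 fold change of 0.44, beside 21.0% higher and 22.3% lower over all genes. Ldha, lactate dehydrogenase A, rose by 1.85 ± 0.15 (adjusted p = 1.48e-06). Odc1, the rate-limiting enzyme of polyamine synthesis, fell from 706.1 ± 179.5 to 7.606 ± 1.822 CPM (SD), a log2 fold change of -6.53 ± 0.25 (adjusted p = 1.28e-08), with its copy Gm7993 at up to 54.1% of its count. Tfrc, the transferrin receptor, fell by 3.03 ± 0.21 (adjusted p = 5.25e-07). Eif4a1, a translation initiation helicase, rose by 1.69 ± 0.12 (adjusted p = 6.14e-07), with a pseudogene at up to 18.5% of its count. An E-box stood in 6 of 27 promoters of these targets, or 22.2%. The list was made of known MYC targets, so that share does not speak to these samples, and a link to the changes was not tested.

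**Figure D5:**
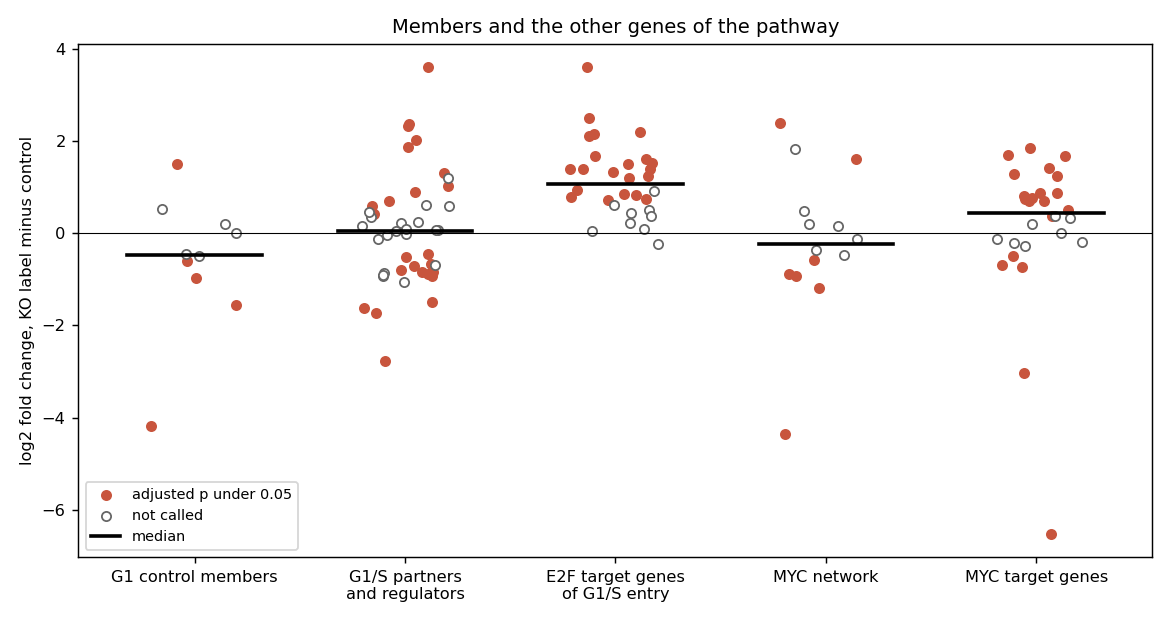
Log2 fold change, knockout-labelled minus control, of the 10 members and of the tested genes of 4 lists, 1 point per gene (filled where the adjusted p is under 0.05; the black line is the median). The E2F targets have 21 filled points above 0 and 0 below, and the other 3 lists have filled points on both sides.

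Ordered by level per length in the controls, the 10 genes were Ccnd1, Cdk4, Cdk6, Ccne1, Ccnd3, Ccnd2, Myc, Rb1, Cdkn2c and Cdkn1b, from 31.1 to 0.153 CPM per kb. Neighbours overlapped over the 3 libraries from Ccne1 (2.71) through Ccnd3 (1.83) to Ccnd2 (1.19) and from Myc (0.346) through Rb1 (0.292) to Cdkn2c (0.285), and the other neighbours did not. In the knockout-labelled libraries Cdk4 came first at 57.8 CPM per kb, ahead of Ccnd1 (15.9) and Cdk6 (10.5). Ccne1 and Ccnd3 followed at 2.71 and 2.65 and overlapped, then Ccnd2 (0.408). The last 4, Cdkn2c, Rb1, Cdkn1b and Myc, each overlapped their neighbour.

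The genes nearest in pattern to Cdk4 over the 6 libraries, by root mean squared distance between centred log2 CPM among 3713 candidates, were Ran (distance 0.0279, log2 fold change 1.49), Fdps (0.0493, 1.48) and Psap (0.0526, 1.5). For Myc the distances were larger, and the nearest were Cpd (0.728, log2 fold change -4.42), Ifi204 (0.733, -3.72) and Cxcl10 (0.761, -4.59). With 3 libraries a group, such likeness mostly reflects the size of the difference between the groups.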

How the data were processed

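RNA from 6 RAW264.7 samples, 3 per group, was extracted with Trizol and made into Illumina libraries, per the labels' protocols. The deposited values are whole-number counts per gene, and per the submitters' processing notes they refer to GRCm38. The aligner, counter, strand setting and handling of multiply mapping reads were not given in the sources used here. Columns were matched to samples by name, and 0 were left over. Of 55487 IDs 55227 matched GENCODE M21, whose coordinates are used.

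The fit was edgeR 4.0.16 in R 4.3.3 (TMM, filterByExpr, robust quasi-likelihood test, Benjamini-Hochberg 0.05 over 12930 genes), tested on simulated data. The common biological coefficient of variation was 0.32. SE is the log2 fold change over the square root of F. Levels per length use summed exon length. Copies were sought with blastn 2.17.0 (95% identity over 200 bp). Counting intervals and floors (3 counts) cover counting error only.

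Alternatives were DESeq2 1.42.0 and its size factors, library totals, no filter, and a filter of 1 CPM in 3 libraries. Others were each library left out, a replicate block, counts divided by 4, and the 10 most abundant genes left out. The trend with exon length was also removed, by the loess function of R (span 0.3) with its values passed to edgeR as offsets. Named are the 10 members, Rhoa, the 4 called genes of smallest p per list, overlapping genes with at least 10% of a member's count, and the 3 genes nearest in pattern to the members with the largest rise and fall. Members and lists were chosen with earlier results of these data known.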

Additional observations from a re-analysis of the deposited data

How the results depend on the processing

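Ccnd1 (-1.11 to -0.80), Ccnd2 (-1.75 to -1.05) and Cdk4 (1.26 to 1.68) kept their calls under all 16 alternatives, and 137 of 157 alternative values of the members kept direction and side of the threshold, as did 458 of 464 for 29 other named genes. The exceptions that changed sign were Ccne1 at 0.00 (no filter, stricter filter, or without the 10 most abundant genes), -0.04, -0.11 and -0.14 (without control replicate 1, control replicate 2 or knockout replicate 2), -0.22 (length correction) and -0.26 (the same on the longest transcript), with 0.14 as its highest value without a library. Others were Cdk6 at 0.00 and 0.10 under the 2 length corrections, Cdkn1b at -0.24 and -0.04 without knockout replicates 1 and 2 against 0.70 without replicate 3, Cdkn2d at 0.13 with library totals, and Rbl1 at 0.00 without control replicate 2. The correction on the longest transcript was chosen after seeing the data. The stricter filter removed Cdkn1b, Cdkn2c and Myc, so it gave them no value. The 29 other named genes leave out E2f4, E2f5, Mxd3 and Tfdp2, among others, so the 458 of 464 does not cover these. The Mxd3 call was lost in several settings, as given above.

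Members called higher were 2, with Ccnd3 added, under library totals, DESeq2, both length corrections and counts divided by 4, and 1 to 2 with a library left out. G1 to S partners called lower were 4 with library totals and 8 under either length correction. MYC network genes called higher were 1 under either length correction and 1 to 2 with a library left out. Those called lower were 3 with library totals or the correction on the longest transcript. MYC targets called lower were 2 with library totals and 3 to 4 with a library left out. Rhoa ranged from 0.34 to 0.45 with a library left out, and was 0.59 with library totals and 0.75 and 0.76 under the 2 length corrections. D cyclin share differences on the longest transcript were -11.6 points for Ccnd1 and 13.4 for Ccnd3. The cause of these shifts was not tested.

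Same-numbered samples did not deviate together (r = -0.01, 0.03 and 0.01), so no pairing by number was seen. With 3 libraries a group these values cannot exclude it. With the replicate block, 2634 genes were called higher and 2738 lower, members stayed at 1 and 4, and Cdkn1b was -0.12. Cdkn1b, Cdkn2c, Rb1 and Myc had under 150 counts in every library. With counts divided by 4 their SEs were 0.59, 0.53, 0.36 and 0.84, against 0.66, 0.55, 0.33 and 1.17 at full depth, so only that of Rb1 was larger. The spread was estimated anew in that fit, so the comparison does not show whether depth limits these genes.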
